A study of Rattus norvegicus with 113 samples.

Results

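Matrix metalloproteinases (Mmps), Adam and Adamts proteases and their tissue inhibitors (Timps) were followed in the hippocampus and cortex of rats after fluid percussion injury (FPI), a model of traumatic brain injury (TBI) in which a pulse of fluid strikes the exposed dura. The members are the genes that the RefSeq identifiers of the array probes name as a numbered Mmp, Adam or Adamts or as 1 of the 4 Timps, each represented by the brightest of its probes on average. Of 71 rat RefSeq genes with such a name, 50 had a named probe on the arrays, among 16581 named genes in all: 21 Mmps, 15 Adams, 10 Adamts genes and 4 Timps. The larger of 2 array designs carries all 50 and the smaller carries 49, since Adamts10 has no named probe there. The same probe was best on both designs for 38 of the 49 shared members. Adam8, a protease of myeloid cells, had no named probe and was not analysed here.

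Mmps are zinc proteases that are secreted or held at the membrane as inactive precursors and cut collagens, laminins, proteoglycans and other matrix proteins once activated. Adams are anchored in the membrane and release the outer parts of cytokines, growth factors and receptors, although some Adams of the nervous system, such as Adam11 and Adam23, have no protease activity and act in adhesion. Adamts proteases are secreted, and several of them cut the chondroitin sulphate proteoglycans that make up much of the brain's matrix. Timps bind the active site of these proteases and block it. In injured brain the family is known for opening the basement membrane of vessels, for the passage of leukocytes and for remodelling of the matrix around neurons.

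RNA came from the hippocampus and from a piece of cortex near the injury of adult male Sprague-Dawley rats, 1 array with 1 dye per sample, 113 arrays in all. TBI rats received a parasagittal FPI, which GEO's labels call moderate and the methods call severe. Sham-injured rats had the same surgery and anaesthesia without the fluid pulse, and naive rats were neither handled nor anaesthetised. Rats were killed 24 hr, 2 weeks, 3 months, 6 months or 12 months after surgery, with 4 arrays per group, tissue and interval, but for hippocampal samples at 24 hr only 2 sham and 3 TBI arrays exist and naive rats are missing. The labels do not say which rats shared a litter or a day of surgery. The p-values set a difference between groups against the spread between arrays within groups, which holds no difference between slides.

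By the scanner software's call, 41.2% to 93.0% of probes exceeded background clearly, depending on the array (median 56.0%). The hippocampal arrays at 24 hr and 3 months are of the smaller design (30367 probes, 17 arrays) and the others of the larger one (45598 probes, 96 arrays), and 19277 probes are on both. Each group of each tissue and interval lies on 1 slide. TBI and sham arrays share a slide for hippocampal samples of 2 weeks, 3 months and 12 months and for cortical samples of 3 and 12 months, and in the other TBI vs sham comparisons slide and injury cannot be told apart. In the hippocampus at 24 hr they also differ in scan day. Sham and naive arrays share a slide for hippocampal samples of 6 months and for cortical samples of 24 hr, 2 weeks and 6 months. TBI and naive arrays never share one, and in all comparisons across slides, slide and group cannot be told apart. The labelled tissues were checked in naive rats against markers: 6 of 7 hippocampal markers tested were higher in the hippocampus, led by C1ql2 with a log2 difference of 5.25, while 4 of 7 cortical markers were lower there, led by Lamp5 with -2.57. Neurod6 and Nr4a2, listed as cortical markers, were higher in the hippocampus, by 1.82 and 1.73.

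Levels are given as log2 of the processed signal over the median of the array, so a level of 0 is the median probe and 1 unit is a doubling. They compare arrays for 1 probe, and levels of different probes, or of 1 gene on the 2 designs, are not set against each other. A log2 fold change is the difference of 2 group means, from limma. A member was tested where all arrays of 1 or both groups of the comparison held it well above background, which favours members that are high in 1 group, and was called at an adjusted p under 0.05. The study's own rule, a fold of at least 1.4 with an unadjusted p under 0.05, is named the fold rule. Where arrays of 2 groups are said not to overlap, the share of all probes without overlap was not computed. Such a lack of overlap cannot be read as particular to the members. In tissue pieces of mixed cells, fewer cells of a type and less RNA per cell cannot be told apart.

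Of the 50 members, 33 were well above background throughout 1 or more groups, 18 of them in every array of the series, and 16 others in some arrays but in no whole group. Adam34, a testis gene, was above background in none. The 33 are the members tested between TBI and sham in at least 1 tissue and interval, 20 of them in all 10 comparisons. Over those comparisons there were 11 calls, of 11 different members, all hippocampal, 10 of them at 24 hr and 1 at 2 weeks.

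**Figure D1:**
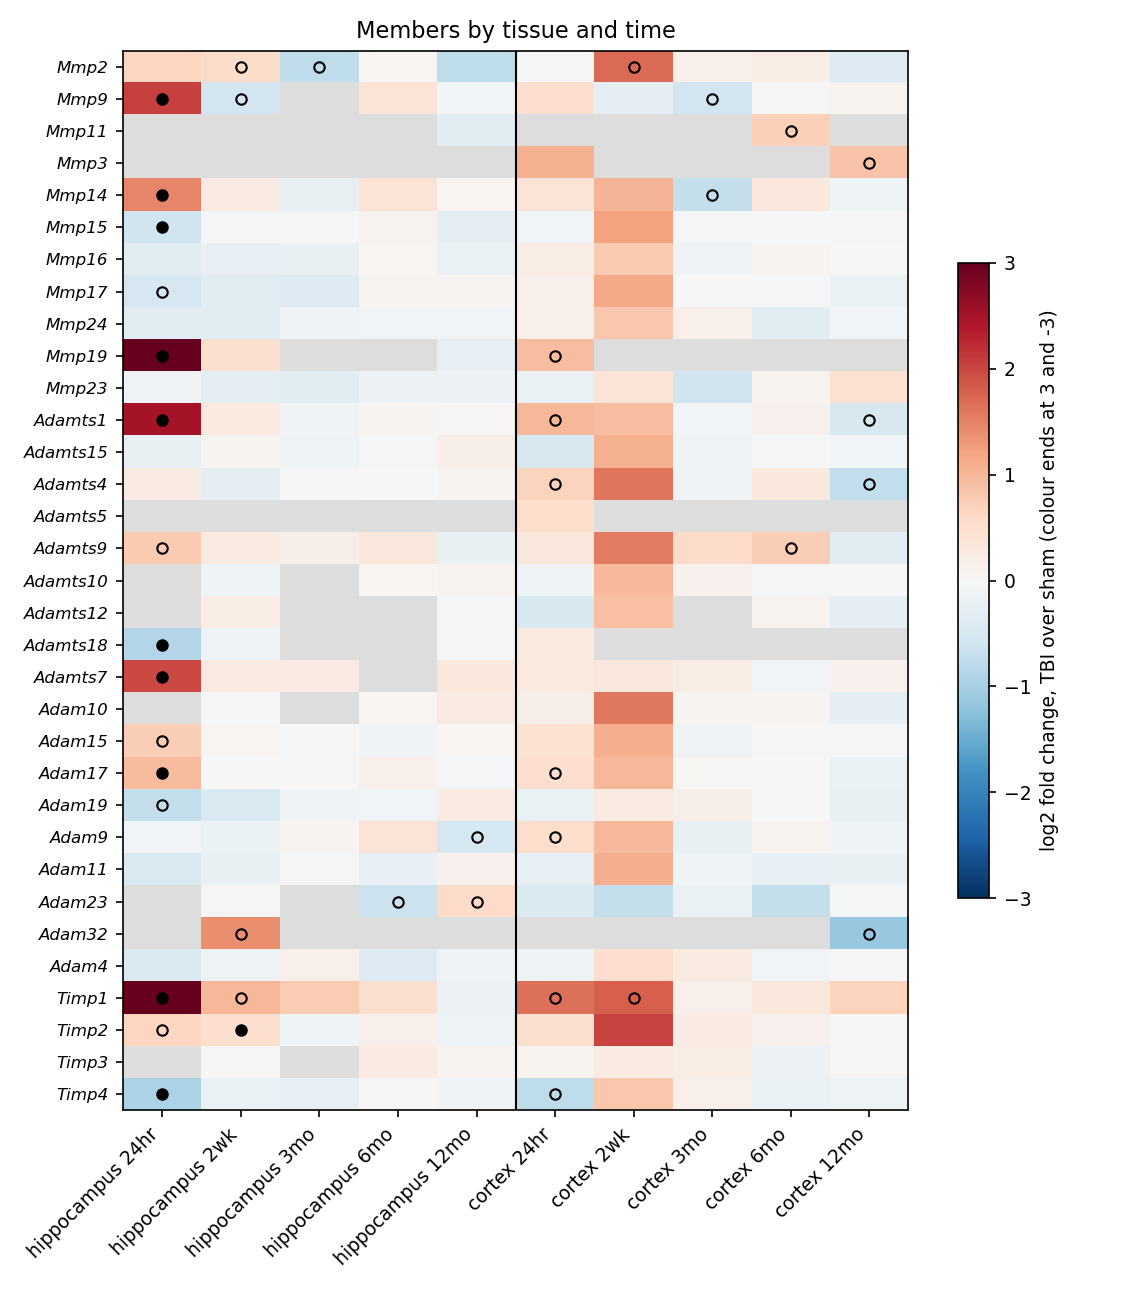
Log2 fold change of TBI over sham (colour, ending at 3 and -3) for the 33 members tested in at least 1 comparison, with tissues and intervals as columns and grey where a member was not tested. Filled circles are calls at an adjusted p under 0.05 and open circles meet the fold rule alone; 10 of the 11 filled circles stand in the first column, and the cortex at 2 weeks is tinted by 1 sham array described in the text.

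In the hippocampus 24 hr after TBI, Timp1, Mmp19, Adamts1, Mmp9, Adamts7, Mmp14 and Adam17 rose over sham, and Timp4, Adamts18 and Mmp15 fell. These are 10 of 24 members tested, where 13.5% of all probes tested were called. The 7 that rose stand against 5.56% of probes called higher, and the 3 that fell against 7.98% called lower. By the fold rule 15 of 24 members changed, against 24.8% of probes. The median log2 fold change of the 24 members was 0.09, against -0.02 over all probes. With 2 sham arrays the calls rest on few values: when either sham array was left out, 3 members were called (Timp1, Mmp19 and Adamts1), when TBI replicate 1 was left out, 5 were, and over all such omissions the count was 3 to 8. None was called when every probe was tested without the filter on dim probes, where the lowest adjusted p of a member was 0.0648.

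Timp1, an inhibitor that is secreted and strongly inducible, had the largest change of all members. Its level was 7.90, 7.79 and 7.66 in the 3 TBI arrays and 2.15 and 3.33 in the 2 sham arrays. The lowest TBI array lay more than 4 log2 units above the highest sham array, and the log2 fold change was 5.04 ± 0.34 (SE), a 33.0-fold difference (limma, adjusted p = 0.00331). No other Timp was called higher. Timp4, the inhibitor most typical of brain and heart, fell: its level was 3.45, 3.65 and 3.28 after TBI and 4.58 and 4.22 after sham surgery, without overlap (log2 fold change -0.94 ± 0.19, adjusted p = 0.0256). A second Timp4 probe gave -0.66 with an adjusted p of 0.0648. Timp2, which is made constitutively and helps to activate Mmp2 at the membrane, read 7.56, 7.79 and 7.65 after TBI and 7.31 and 6.74 after sham surgery, a difference of 0.64 that did not pass the test (adjusted p = 0.0906). Timp3, the inhibitor bound to matrix, was not above background in a whole group on the smaller design and was not tested in the hippocampus at 24 hr.

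**Figure D2:**
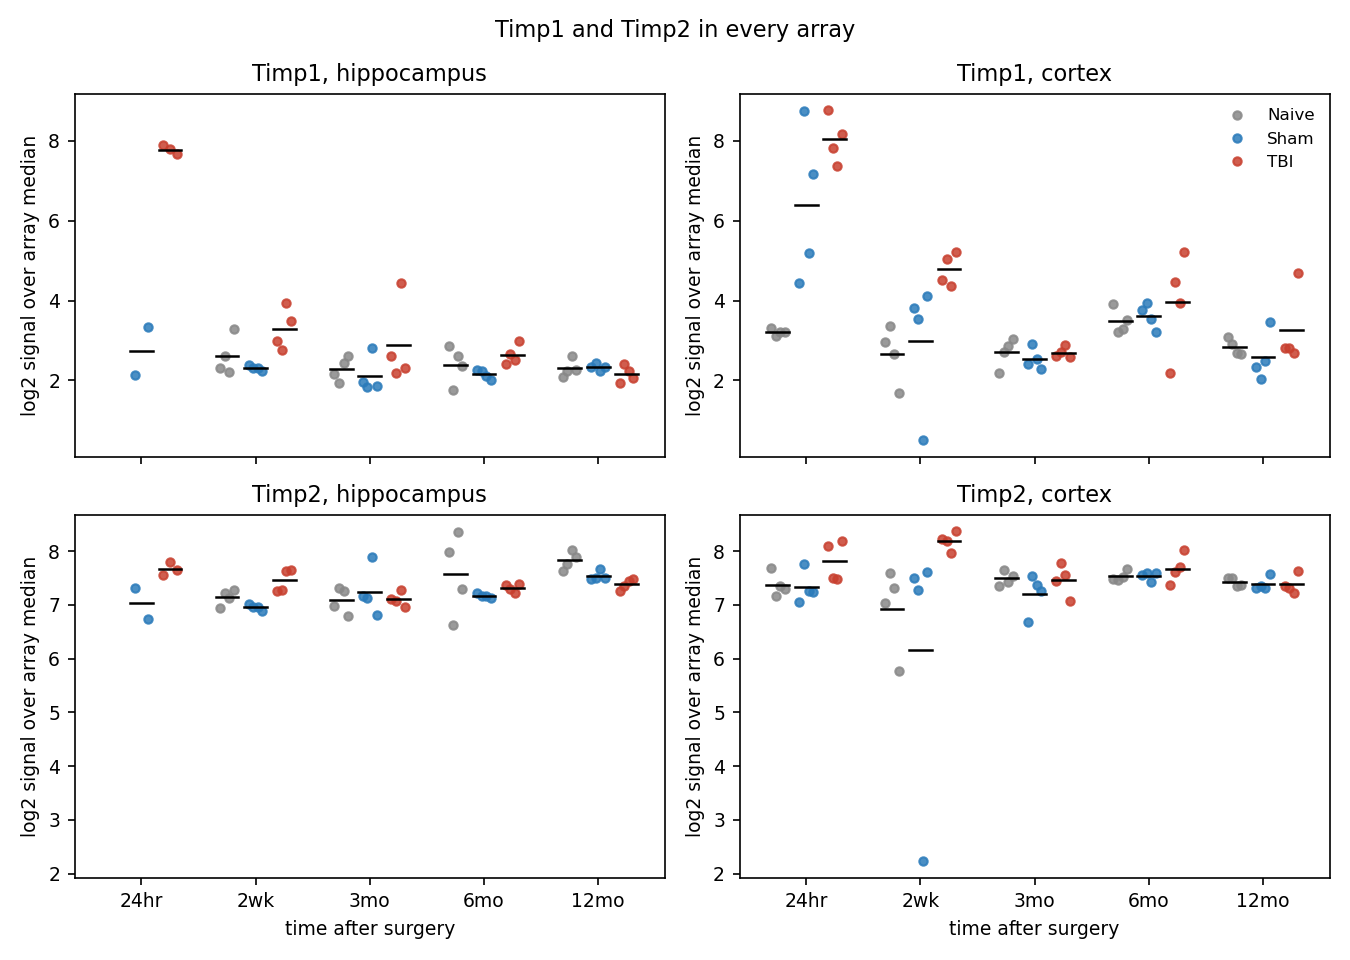
Level of Timp1 (upper panels) and Timp2 (lower panels), as log2 signal over the array median, in every array by tissue, group and time after surgery; dots are arrays and lines group means. Timp1 is high in all TBI arrays at 24 hr and spread from 4.45 to 8.75 in the cortical sham arrays of that interval. The hippocampal arrays at 24 hr and 3 months are of the smaller design and are not on the level scale of the others.

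Because Timp1 moved most, the 250 bases before its transcription start are shown, from the minus strand at chrX:3771123-3771372 of the RefSeq assembly GRCr8. They were searched with those of the other members on both strands for AP-1 letters (TGANTCA), STAT letters (TTCNNNGAA) and a kappa B motif, and none of the letters searched is in the window, so it carries no capitals.
Timp1: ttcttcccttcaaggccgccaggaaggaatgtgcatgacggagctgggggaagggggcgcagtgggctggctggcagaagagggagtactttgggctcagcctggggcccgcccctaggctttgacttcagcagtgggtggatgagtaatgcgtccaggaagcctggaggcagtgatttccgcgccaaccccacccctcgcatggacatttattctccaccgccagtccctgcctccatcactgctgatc
RefSeq promoter entries were at hand for 33 members and for 4 of the 7 that rose in the hippocampus at 24 hr, Timp1, Adamts1, Adamts7 and Adam17. None of these 4 windows held an exact match to any of the 3 motifs. Near matches, such as tgagtaa in the Timp1 window beside TGANTCA, were not counted, so the search does not show that a site is absent.

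Among the Mmps, Mmp19, a secreted protease of vessel walls and myeloid cells, was not well above background in either sham array (-2.77 and -2.70) and reached 0.83, 0.53 and 0.06 after TBI, all 3 above background. Set against the lowest level called above background on each array, over all probes, this was a 5.89-fold rise. The fitted log2 fold change was 3.21 ± 0.24 (limma, adjusted p = 0.00331). The level used is not the limit of the Mmp19 probe itself, and under normexp the log2 fold change was 0.75. Mmp9, gelatinase B, known for cutting basement membrane collagen around vessels, read 1.37, 0.06 and 0.69 after TBI against -1.03 and -1.67 in sham rats, of which 1 array was above background. All TBI arrays lay above both sham arrays, with a fitted difference of 4.16-fold (log2 fold change 2.06 ± 0.40, adjusted p = 0.0242) that is not exact, since 1 of the 2 sham arrays was at background; under normexp it was 0.70 on the log2 scale. Mmp14, the membrane-type protease that activates the precursor of Mmp2, read 3.72, 3.17 and 3.40 after TBI and 2.01 and 1.92 after sham surgery (2.76-fold, adjusted p = 0.00878). Mmp2 itself, gelatinase A, read 3.56, 3.47 and 3.88 against 2.58 and 3.41, and its difference of 0.65 was not called (adjusted p = 0.168), while a second Mmp2 probe gave 1.02 with an adjusted p of 0.0306.

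The other membrane-type Mmps did not share the rise of Mmp14. Mmp15 fell, from 6.58 and 6.68 in sham rats to 6.14, 6.08 and 5.86 after TBI (log2 fold change -0.60 ± 0.15, adjusted p = 0.0494), but the mean of all its probes gave -0.00, where its other probe did not pass the filter. The Mmp15 call was also lost when any 1 TBI array was left out (limma, adjusted p 0.0652 to 0.131). Mmp17 (-0.50, with 0.06 from a second probe), Mmp16 (-0.35) and Mmp24 (-0.35), all typical of neurons and glia, were lower in the mean and not called. Mmp3, stromelysin 1, was above background in 1 of 5 arrays and was not tested, with levels of -0.35, -1.61 and -0.65 after TBI against -3.05 and -2.84.

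Of the Adamts proteases, Adamts1, which cuts aggrecan and versican, rose from 1.67 and 1.96 in sham rats to 3.91, 4.82 and 4.21 after TBI, 5.64-fold (log2 fold change 2.5 ± 0.28, adjusted p = 0.00611). Adamts7, known from vascular smooth muscle, rose from -0.25 and -0.23 to 1.92, 2.27 and 1.06, 3.96-fold (adjusted p = 0.0184). For both, every TBI array lay above both sham arrays by more than the spread within a group. Adamts18 fell, from 0.00 and -0.54 to -1.32, -1.08 and -1.02, of which 2 TBI arrays were above background (log2 fold change -0.87, adjusted p = 0.0425). The Adamts18 call was lost when any 1 TBI array was left out (limma, adjusted p 0.0704 to 0.112) and was kept in 3 of 9 other settings. Adamts4 and Adamts9, which cut the same kind of proteoglycans as Adamts1, had differences of 0.26 and 0.78 that were not called (adjusted p = 0.152 for Adamts9), and Adamts5 was not above background in any of the 5 arrays.

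Of the Adams, Adam17, the sheddase that releases tumour necrosis factor and ligands of the epidermal growth factor receptor, rose from 1.32 and 1.31 in sham rats to 2.46, 2.39 and 1.94, 1.93-fold (log2 fold change 0.95 ± 0.19, adjusted p = 0.0285). Adam15, a sheddase of vessel cells, differed by 0.73 (adjusted p = 0.0953) and Adam9, another sheddase, by -0.08. Adam19, which is known to process neuregulins, was at -0.71 and was not called (adjusted p = 0.101). Adam11 and Adam4 were at -0.46 and -0.44 and were not called. Adam10, the main alpha-secretase of neurons, was not above background in any of the 5 hippocampal arrays at 24 hr, which are of the smaller design. It was above background in all 96 arrays of the larger design and in 98 of the 113 arrays of the series. The designs read Adam10 by different probes.

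**Figure D3:**
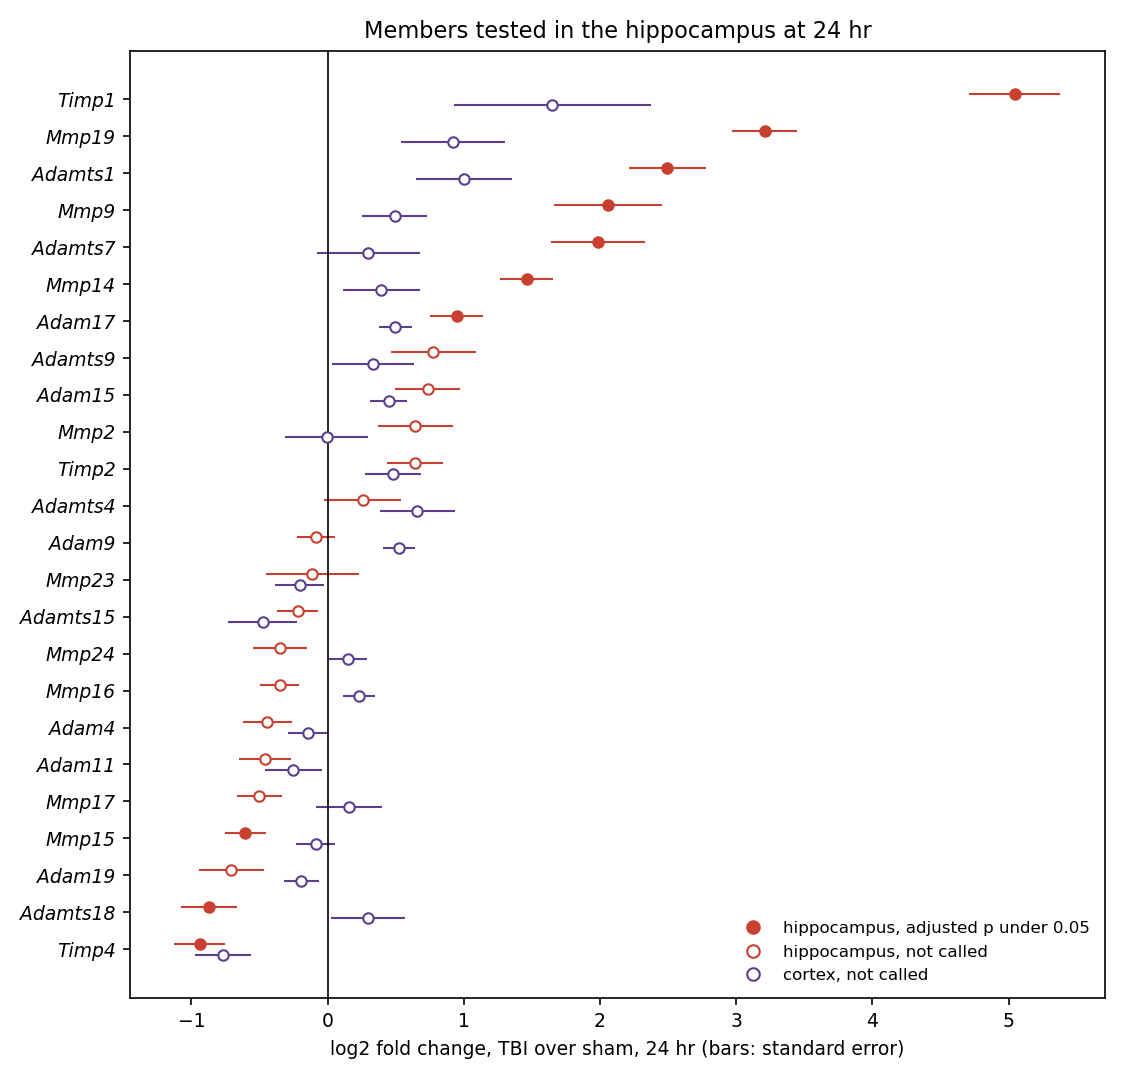
Log2 fold change of TBI over sham at 24 hr with standard error, for the 24 members tested in the hippocampus (red, filled where the adjusted p is under 0.05) and the same members in the cortex (purple, none called). Timp1 stands at 5.04 in hippocampus and 1.65 in cortex, while Timp4 is negative in both tissues.

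Genes that act around the family were described from lists chosen with earlier results known, and their counts stand against the 5.56% of probes called higher and the 7.98% called lower. Of 18 tested genes that activate or regulate these proteases, 5 rose and 1 fell in the hippocampus at 24 hr, with a median of 0.44 against -0.02 over all probes. Among the rises were those of Lcn2, a lipocalin that binds Mmp9, by 7.06, and Serpina3n, a protease inhibitor of reactive astrocytes, by 5.82. Of 24 matrix and adhesion substrates, 5 rose and 2 fell (median 0.17), led by Spp1 (osteopontin, 5.40), the hyaluronan receptor Cd44 (2.77) and fibronectin, Fn1 (1.80). Of 16 substrates that Adams shed, 3 rose and none fell (median -0.09): Hbegf by 2.10, Tnfrsf1a by 1.61 and Ptprz1 by 0.65.

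Several marker lists of other cells moved with these members. Summed levels, in multiples of the array median, of 9 neutrophil markers on the array were 4.94 to 5.77 in sham rats and 51.1, 106 and 16.5 after TBI, with 3 of the 9 above background in all TBI arrays and Camp, Cxcr2, Elane, Fpr1, Ngp and Np4 above it in none. The TBI array with the highest neutrophil sum was not the one with the highest Mmp9. Summed microglia and macrophage markers were 712 to 787 in sham rats and 1040 to 1508 after TBI (4 of 15 called higher, against 5.56% of probes). Summed meningeal and fibroblast markers were 119 to 164 and 207 to 292, and pericyte markers 68.0 to 74.5 and 81.0 to 162. Choroid plexus markers were spread within both groups. They summed to 27.1 and 1172 in sham replicates 1 and 2 and to 36.8, 76.9 and 973 in TBI replicates 1 to 3. Sums of the astrocyte, oligodendrocyte and neuronal lists were lower, each without overlap. Astrocyte markers summed to 2730 to 2968 in sham rats and 2146 to 2502 after TBI. Within that list Vim and Gfap were called higher, by 3.08 and 1.88, while Gja1 was called lower, at -0.63. Oligodendrocyte markers summed to 3104 to 3739 and 2341 to 2817, and neuronal markers to 1448 to 1573 and 1273 to 1323. Endothelial markers went the other way, with 115 to 137 in sham rats and 138 to 149 after TBI. The part of these cells in the rises of Timp1, Mmp9, Mmp14 and the others, or in the falls of Timp4, Mmp15 and Adamts18, was not tested.

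In the cortex at 24 hr no member was called between TBI and sham (0 of 31 tested, against 0.216% of all probes), although 9 members had an unadjusted p under 0.05, against 20.8% of probes, and 7 met the fold rule, against 10.3% of probes. All probes tested had a median of 0.12, and the members one of 0.23. The sham arrays were themselves spread: replicates 2 and 4 read higher than replicates 1 and 3 for 11 of the 29 members above background in all 4, among them Timp1, Mmp19, Mmp3, Adamts1, Adamts7 and Adam17. That split was chosen after the values were seen. The share of all probes in the same order was not computed, so the count of 11 cannot be read as particular to the members. The count of calls was 0 to 2 when 1 array at a time was left out, with 2 without TBI replicate 3.

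Timp1 shows the pattern. It read 3.31, 3.11, 3.20 and 3.21 in naive cortex, 4.45, 8.75, 5.18 and 7.16 in sham cortex and 8.77, 7.82, 7.37 and 8.17 in TBI cortex. Sham arrays all lay above the naive arrays, and the highest sham array reached the highest TBI array. Against sham, the TBI difference of 1.65 ± 0.72 was not called (adjusted p = 0.220), and it ranged from 1.00 without sham replicate 1 to 2.44 without sham replicate 2. Against naive, Timp1 was higher by 4.83 in TBI cortex (28.4-fold, adjusted p = 0.00729) and by 3.18 ± 0.71 in sham cortex (adjusted p = 0.0140). These comparisons share their arrays.

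**Figure D4:**
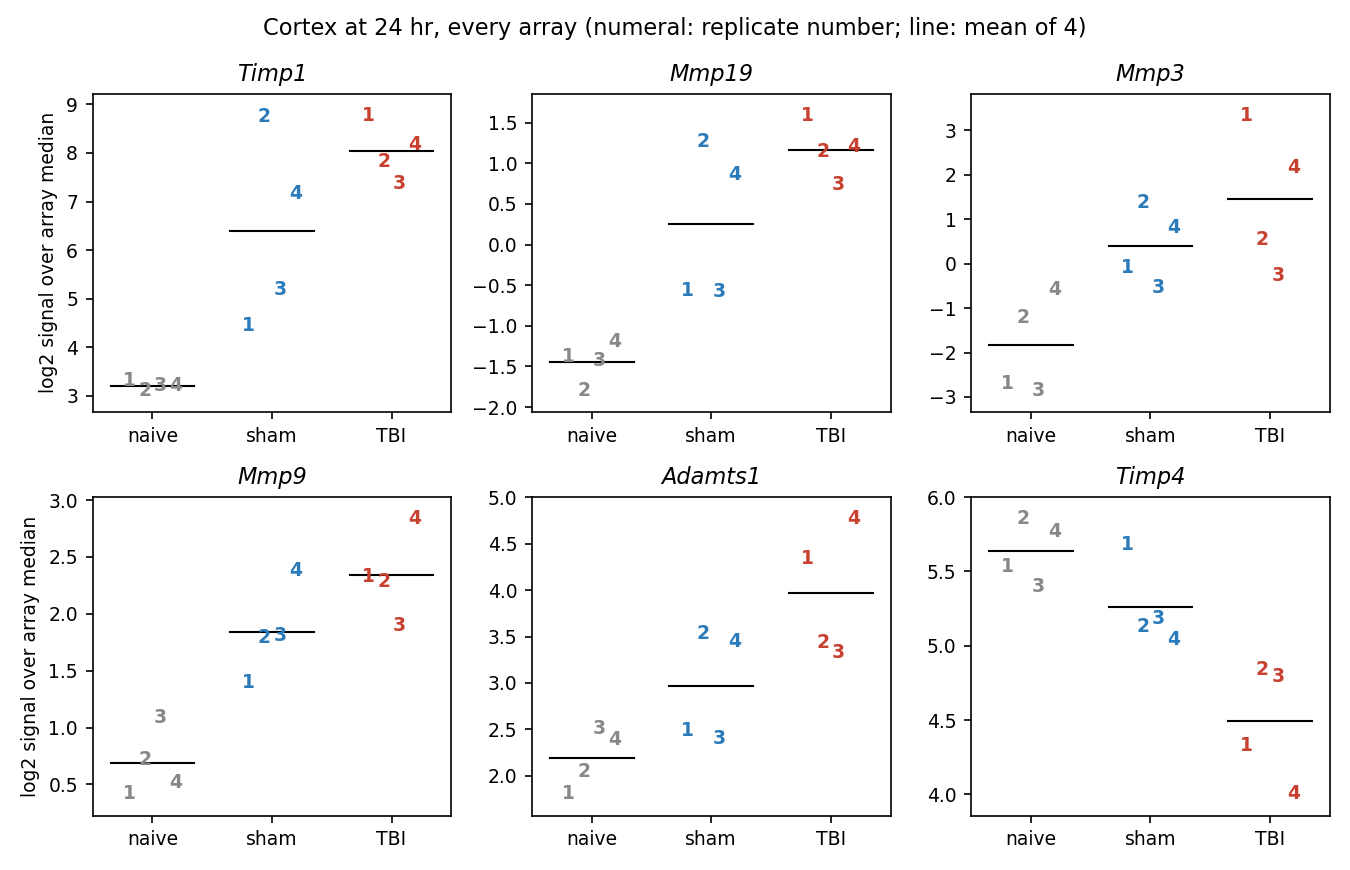
Level in every cortical array at 24 hr, as log2 signal over the array median, for 6 members; numerals are replicate numbers within a group and have no meaning across groups, and lines are means of 4 arrays. Sham replicates 2 and 4 read above sham replicates 1 and 3 for Timp1, Mmp19, Mmp3 and Adamts1, while Timp4 is lowest in all 4 TBI arrays.

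Sham surgery alone separated some members from naive cortex at 24 hr. Mmp19 read -1.38, -1.79, -1.43 and -1.19 in naive, -0.57, 1.27, -0.57 and 0.86 in sham and 1.59, 1.14, 0.74 and 1.21 in TBI cortex. Mmp9 read 0.42, 0.72, 1.09 and 0.52, then 1.39, 1.80, 1.81 and 2.38, then 2.33, 2.29, 1.90 and 2.83. Both rose in sham over naive, Mmp19 by 1.69 (adjusted p = 0.0133) and Mmp9 by 1.16 (adjusted p = 0.0105), with no overlap between the naive and sham arrays of either. Under normexp they were at 0.69 and 0.75, and with all groups of the tissue in the fit neither was called (adjusted p = 0.25 and 0.262). With Timp1 these were the 3 of 29 members called higher, against 0.962% of probes.

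The 3 called lower in sham cortex stand against 18.3% of probes called lower, and the 6 in all against 19.2%. Adam11, an adhesion Adam of neurons, read 6.57 to 6.74 in naive and 5.69 to 5.88 in sham cortex (log2 fold change -0.92, adjusted p = 0.0141). Mmp15 read 6.80 to 7.01 and 6.15 to 6.43 (-0.60, adjusted p = 0.0168), and Adam4 differed by -0.54 (adjusted p = 0.0256). All probes tested had shifted by -0.20 in the median, and relative to that shift the falls of Adam11, Mmp15 and Adam4 were -0.72, -0.40 and -0.34. None of the 3 falls was called when arrays were centred on the 75th percentile, quantile normalized or taken from the authors' table. Relative to the same shift Timp1, Mmp19 and Mmp9 were at 3.38, 1.90 and 1.36.

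After TBI, 11 of 31 members differed from naive cortex at 24 hr (17.5% of probes), 6 higher (6.38%) and 5 lower (11.1%). Beside Timp1, Mmp3 rose by 3.28, Mmp19 by 2.62, Adamts1 by 1.78, Mmp9 by 1.65 and Adamts7 by 1.42 (adjusted p from 0.00729 to 0.0267). Under normexp these calls held with smaller sizes for Mmp3 (1.38), Mmp19 (1.2) and Adamts7 (0.84). Adam11 (-1.17), Timp4 (-1.15), Adamts10 (-0.69), Mmp15 (-0.69) and Adam4 (-0.68) fell (adjusted p from 0.00835 to 0.0370). None of the 5 falls was called with all groups of the tissue in the fit (adjusted p from 0.218 to 0.737), and Adamts10 kept its call in 3 of 10 settings and lost it in 6 of 8 that left out 1 array. Timp4 read 5.53, 5.85, 5.40 and 5.77 in naive, 5.68, 5.13, 5.18 and 5.04 in sham and 4.33, 4.84, 4.79 and 4.0 in TBI cortex, and every TBI array lay below every other array. Its difference from sham, -0.77 ± 0.21, missed the threshold (adjusted p = 0.0875).

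Adamts1 read 1.81, 2.05, 2.5 and 2.40 in naive, 2.49, 3.53, 2.40 and 3.45 in sham and 4.35, 3.43, 3.33 and 4.77 in TBI cortex, with overlap between sham and TBI (difference 1.00, adjusted p = 0.142). The sheddases Adam9 and Adam17 came closest to a call against sham. Adam9 read 2.44, 2.34, 2.48 and 2.40 in sham and 2.90, 3.13, 2.83 and 2.88 in TBI cortex (0.52, adjusted p = 0.0707). Adam17 read 2.61, 2.69, 2.52 and 2.96 and then 3.26, 2.98, 3.19 and 3.33 (0.50, adjusted p = 0.0780). For both, no TBI array fell within the range of the sham arrays.

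Adamts4 met the fold rule in the cortex at 24 hr, with 4.95, 4.25, 4.92 and 5.0 after TBI and 3.67, 4.14, 4.33 and 4.35 after sham surgery (0.66, adjusted p = 0.200), and under normexp it was called (0.83, adjusted p = 0.0261). Other members with known roles were not called there: the difference was -0.01 for Mmp2, 0.11 for Timp3, 0.17 for Adam10, 0.33 for Adamts9, 0.40 for Mmp14, 0.48 for Timp2 and 0.53 for Adamts5, with adjusted p up to 0.993. No gene of the lists of regulators, matrix substrates or shedding substrates was called between TBI and sham. Between sham and naive cortex, 2 of 18 regulators rose and 2 fell (Serpina3n by 6.34, Lcn2 by 4.18, Ctss by -0.78), and 1 of 26 matrix genes rose and 3 fell (Spp1 by 3.80, Tnr by -1.02, Agrn by -0.80), while none of 16 shedding substrates was called. Over all probes 0.962% were called higher and 18.3% lower in that comparison.

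Mmp3 in the cortex at 24 hr read -2.70, -1.20, -2.85 and -0.59 in naive, -0.09, 1.36, -0.54 and 0.81 in sham and 3.33, 0.55, -0.27 and 2.16 in TBI rats. Sham and TBI arrays overlapped, and the TBI difference of 1.06 was not called (adjusted p = 0.466). Mmp12, macrophage elastase, read 2.77, -0.99, -2.70 and 3.06 in TBI cortex, 3 arrays above background, and -2.35, -0.57, -2.37 and -0.49 in sham cortex, 1 above. It was above background in 11 of 112 arrays of the series, 3 of them TBI cortex and 2 TBI hippocampus at 24 hr, where it read 1.61, -3.41 and -0.18. Mmp8, neutrophil collagenase, was above background in 3 TBI arrays (-0.66, -1.16 and -0.38) and 1 sham array (1.21) of the cortex at 24 hr, and in 3 other arrays of the series.

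Sums of neutrophil and microglial markers also differed among the sham arrays of the cortex at 24 hr. The summed neutrophil markers were 5.67 to 9.73 in naive rats, 7.11, 24.1, 6.89 and 46.6 in sham replicates 1 to 4 and 169, 71.4, 15.2 and 166 in TBI replicates 1 to 4. The summed microglia and macrophage markers were 726 to 928 in naive rats, 618, 1138, 787 and 1132 in sham replicates 1 to 4 and 1235 to 1961 after TBI. Sham replicate 1 thus lay below the naive arrays and replicate 3 within their range. Of that list, Trem2 (-0.57) and Cx3cr1 (-0.44) were called lower in sham than in naive cortex, where 18.3% of all probes were. Sham replicates 2 and 4, in which Timp1, Mmp19 and Mmp3 were high, had the higher sums of both lists, and TBI replicates 1 and 4, in which Mmp12 and Mmp3 were high, the highest neutrophil sums of their group. The part of these cells in the members' levels was not tested.

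Mmp3, Mmp12 and Mmp8 lie with other secreted Mmps in 1 stretch of chromosome 8, where 9 members have a promoter entry within 350 kb. Of these 9, 7 hold the AP-1 letters TGANTCA in the 250 bases before their start, and Mmp8 and Mmp27 do not. Over all 33 members with an entry the share was 8 of 33 (24.2%; the eighth is Adam19), against 6.34% of 33469 rat promoters of the same length. STAT letters (TTCNNNGAA) were in 3 of 33 (9.09%: Adamts4, Mmp23 and Mmp8) against 7.67%, the kappa B motif in 0 against 1.3%, and no match of one motif overlapped one of another. The 60 bases from 110 to 51 before the start are shown for 5 neighbours, plus strand of GRCr8 from RefSeq, to let the shared letters be seen; capitals mark the AP-1 match, which is a description of the sequence and not evidence of a bound site. They lie at chr8:12782719-12782778 (Mmp13), chr8:12866542-12866601 (Mmp12), chr8:12925171-12925230 (Mmp3), chr8:12943343-12943402 (Mmp1) and chr8:12974597-12974656 (Mmp10).
Mmp13: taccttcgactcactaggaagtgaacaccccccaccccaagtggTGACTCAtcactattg
Mmp12: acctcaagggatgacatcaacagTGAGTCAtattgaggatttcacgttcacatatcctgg
Mmp3: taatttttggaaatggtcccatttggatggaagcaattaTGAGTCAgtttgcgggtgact
Mmp1: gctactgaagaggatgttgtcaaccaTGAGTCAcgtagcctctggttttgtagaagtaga
Mmp10: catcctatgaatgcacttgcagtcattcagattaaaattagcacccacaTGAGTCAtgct
The match begins 66, 87, 71, 84 and 61 bases before the start, in that order. Mmp3 alone of the 9 was above background in every array of a group. The collagenase Mmp13 was above background in 4 arrays of the series, the interstitial collagenase Mmp1 in 2, the stromelysin Mmp10 in 5 and the matrilysin Mmp7 in 4.

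The hippocampal and cortical TBI effects at 24 hr were set against each other in 1 interaction contrast. Of the 24 members tested in both tissues, 18 had the same sign, among them 9 of the 10 called in the hippocampus, with Adamts18 as the exception. The share of all probes with the same sign was not computed, so the agreement cannot be read as particular to the members. Signs were paired by gene, and some members, among them Adamts18, Mmp14, Mmp2 and Adam15, are read by different probes on the 2 designs. The difference between tissues was called for 1 of 26 members (3.45% of probes): Mmp19 had risen more in the hippocampus, by 2.29 ± 0.58 (adjusted p = 0.0427). For Timp1 the effect differed by 3.40 without passing (adjusted p = 0.113), for Adamts7 by 1.69 (0.165), for Mmp9 by 1.56 (0.0835), for Adamts1 by 1.49 (0.180) and for Mmp14 by 1.1 (0.204), all larger in the hippocampus. Adam9 (-0.61, adjusted p = 0.0748) and Mmp16 (-0.58, 0.0811) leaned towards the cortex. Mmp19 was not above background in the hippocampal sham arrays, so the size of its difference is not exact, and its call was lost in 9 of 13 settings that left out 1 array. Under a normexp background correction the difference was 0.24 for Mmp19 (adjusted p = 0.779), 0.22 for Mmp9 (0.791) and 0.79 for Adamts7 (0.391). The tissues are on different array designs at 24 hr, and the fit treats them as independent although both were taken from each rat. At the later intervals no member differed between tissues: 0 of 30 at 2 weeks (0% of probes), 0 of 23 at 3 months (0%), 0 of 28 at 6 months (0.004%) and 0 of 32 at 12 months (0%), with 0, 0, 0 and 3 members at an unadjusted p under 0.05 (2.32%, 4.6%, 1.75% and 8.73% of probes).

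In the hippocampus at 2 weeks, Timp2 was the 1 member of 30 called (2.37% of probes). It read 7.27, 7.28, 7.63 and 7.64 after TBI, 7.01, 6.95, 6.96 and 6.88 after sham surgery and 6.95, 7.22, 7.13 and 7.27 in naive rats. Every TBI array lay above every sham array, and the lowest TBI arrays met the highest naive array (log2 fold change 0.50 ± 0.11, 1.42-fold, adjusted p = 0.0392). Relative to the median shift of all probes, -0.11, the difference was 0.62. The adjusted p was 0.0219 to 0.124 when 1 array at a time was left out, and the call was lost in 6 of those 8 settings.

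By the fold rule 5 of 30 members changed in the hippocampus at 2 weeks, against 4.56% of probes. Timp1 read 3.00, 2.77, 3.93 and 3.49 after TBI, 2.38, 2.31, 2.31 and 2.23 after sham surgery and 2.30, 2.60, 2.21 and 3.29 in naive rats. No TBI array overlapped the sham arrays, but a naive array did overlap the TBI arrays (log2 fold change 0.99, adjusted p = 0.0652). Mmp2 read 2.28, 1.78, 2.45 and 2.79 against 1.79, 1.57, 1.77 and 1.99 (0.55, adjusted p = 0.138). Mmp9 went the other way, with -0.22, -0.52, 0.42 and -0.68 against 0.96, 0.19, -0.08 and 0.27 (-0.58, adjusted p = 0.195). Adam32, an Adam known from testis, was above background in all 4 TBI arrays and in no sham array. Set against the lowest level called above background, the difference was 1.51-fold (limma, adjusted p = 0.0766). Over other settings its log2 fold change was 0.27 to 1.62.

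At 2 weeks the hippocampal microglia and macrophage markers summed to 597 to 706 in sham rats and 831 to 1639 after TBI. Of these markers 12 of 15 were called higher, against 1.05% of all probes tested. Of 17 tested regulators of the family, Serping1, the C1 inhibitor, rose by 1.81, and no other gene of the pathway lists was called. The part of microglia in the Timp1 and Timp2 differences was not tested.

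In the cortex at 2 weeks 1 sham array stood apart. Sham replicate 3 had 93.0% of its probes above background, and its members read far below the rest: Timp2 was 2.23 there and 7.5, 7.28 and 7.61 in the other sham arrays, against 8.24, 8.19, 7.96 and 8.37 after TBI. Timp1 was 0.50 there and 3.81, 3.54 and 4.10 in the others, against 4.52, 5.03, 4.36 and 5.20, and Mmp2 was -0.33 against 2.24, 1.70 and 2.03, with 3.33, 3.08, 2.59 and 3.41 after TBI. With all arrays, the members' median log2 fold change was 0.97 and that of all probes 0.95, and 25 of 27 members were higher after TBI, a shift common to all probes. No member of 27 was called (0.00848% of probes; 2 at an unadjusted p under 0.05, as were 4.03% of probes) and 2 met the fold rule (4.03% of probes), Mmp2 and Timp1.

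Without that array the medians at 2 weeks in the cortex were 0.05 for the members and 0.01 for all probes, 15 of 27 members were higher after TBI, and 511 probes but no member were called. Mmp2 then differed by 1.11 ± 0.38 (adjusted p = 0.158, against 1.69 with it), Timp1 by 0.96 (adjusted p = 0.388, against 1.79) and Timp2 by 0.73 (against 2.04). For these 3 members every TBI array lay above every sham array, with or without replicate 3. The share of all probes in that order was not computed, so it cannot be read as particular to the members. TBI and sham arrays also lay on different slides there. Microglia and macrophage markers summed to 33.0 to 808 in the sham arrays and 1754 to 2717 after TBI. With all 4 sham arrays, Spp1, the 1 matrix gene called of 25, rose by 5.31. Whether the members' differences come with those cells was not tested.

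Whether the TBI effect differed among intervals was tested with 1 F test per tissue in limma, over all 5 intervals in the cortex and over 2 weeks, 6 and 12 months in the hippocampus. No cortical member was called (0 of 33, against 0.675% of probes; unadjusted p under 0.05 for 3 and for 7.72% of probes), and no hippocampal one (0 of 31, against 0.0425%; unadjusted p under 0.05 for 5 and for 10.4% of probes). The lowest adjusted p was that of Mmp2 in the cortex, 0.0973, and of Adam23 in the hippocampus, 0.0753. The cortical test holds sham replicate 3 of 2 weeks, the array described above, and leaving out 1 array at a time gave 0 to 1 calls.

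At 3 months no member was called between TBI and sham. In the hippocampus 0 of 21 members passed (0.0134% of probes; 2 at an unadjusted p under 0.05, with 5.4% of probes) and 1 met the fold rule (1.75%): Mmp2, at 1.96, 2.25, 2.41 and 2.15 after TBI and 2.46, 3.61, 3.49 and 2.31 after sham surgery, a difference of -0.77 (adjusted p = 0.850), or -0.65 relative to the shift of all probes. Choroid plexus markers summed to 674 to 1056 in those TBI arrays and 708 to 5329 in the sham arrays, and meningeal markers to 113 to 163 and 150 to 458, and their part in the Mmp2 levels was not tested. TBI replicate 3 of the hippocampus was high for Timp1 (4.44, with 2.17 to 2.60 in the other 3) and Mmp9 (2.83), with a neutrophil sum of 3.52, within the 2.74 to 6.17 of its group. In the cortex 0 of 26 passed (0% of probes; 2 at an unadjusted p under 0.05, with 4.39% of probes) and 2 met the fold rule (2.97%). Mmp14 read 1.51, 2.08, 1.43 and 1.60 after TBI and 1.94, 2.51, 2.73 and 2.30 after sham surgery (-0.72, adjusted p = 0.996). Mmp9 read 0.28, 0.82, 0.99 and 0.57 against 1.12, 1.36, 1.11 and 1.4 (-0.58, adjusted p = 1.00), and its TBI arrays lay below all sham arrays.

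At 6 months no member was called either. In the hippocampus 0 of 25 passed (0.0134% of probes; 2 at an unadjusted p under 0.05, with 2.86% of probes) and 1 met the fold rule (2.5%): Adam23, a partner of integrins and of the Lgi1 complex at synapses, read 0.28, -0.16, -0.03 and -0.04 after TBI and 0.63, 0.76, 0.46 and 0.78 after sham surgery (-0.65, adjusted p = 1.00), without overlap. Timp1 read 2.41, 2.65, 2.51 and 2.98 against 2.26, 2.24, 2.12 and 2.00 there, a small difference of 0.48 with no overlap and an adjusted p of 1.00. In the cortex 0 of 28 passed (0.0805%; 3 at an unadjusted p under 0.05, with 9.88% of probes) and 2 met the fold rule (3.94%). Mmp11, stromelysin 3, was above background in all 4 TBI arrays (-0.72, -1.11, -0.60 and -0.38) and in no sham array. Set against the lowest level called above background, the difference was 1.38-fold (limma, adjusted p = 0.133). Over other settings its log2 fold change was 0.12 to 0.71. Mmp11 was called, at an adjusted p of 0.0188, when TBI replicate 2 was left out. Choroid plexus markers summed to 142 to 1359 in those TBI arrays and to 21.4 to 82.8 in the sham arrays, and their part in the Mmp11 levels was not tested. Adamts9 differed by 0.75 (adjusted p = 0.445). Timp1 in the cortex was spread after TBI at 6 months, from 2.19 to 5.21, with the sham arrays at 3.22 to 3.93 inside that range.

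At 12 months no member was called. In the hippocampus 0 of 30 members passed (0% of probes; 2 at an unadjusted p under 0.05, with 14.5% of probes) and 2 met the fold rule (4.53%). Adam23 read 0.77, 0.39, 0.52 and 0.82 after TBI and 0.02, 0.04, 0.35 and -0.22 after sham surgery (0.58, adjusted p = 0.234), the opposite order to 6 months. Adam9 read 1.98, 2.29, 2.42 and 2.94 against 2.99, 2.80, 3.03 and 2.92 (-0.53, adjusted p = 0.273). In the cortex 0 of 29 passed (0%; 6 at an unadjusted p under 0.05, with 5.73% of probes) and 4 met the fold rule, against 1.57% of probes. Mmp3 read 0.38, 0.22, -1.1 and -0.04 after TBI and -0.75, -0.96, -1.19 and -1.03 after sham surgery (0.85, adjusted p = 0.833). Adamts4 (-0.75), Adamts1 (-0.49) and Adam32 (1.1-fold, set against the lowest level called above background) were lower at the same adjusted p. Timp1 was 4.69 in TBI replicate 4 of the cortex and 2.69 to 2.82 in the other 3.

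In the hippocampus at 12 months, naive replicate 3 and sham replicate 3 were high for the same matrix proteases. Mmp2 was 3.35 and 3.66 there and 1.48 to 1.62 and 1.58 to 1.76 in the other arrays of their groups. Mmp14 was 3.33 and 3.23 there, against 1.81 to 2.37 and 1.5 to 1.98. Choroid plexus markers summed to 8028 and 6272 in the same arrays, against 86.2 to 232 and 54.0 to 399 in the others, and meningeal markers to 489 and 435, against 143 to 208 and 147 to 159. The part of these tissues in the 2 members' levels was not tested.

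Outside the cortex at 24 hr, 1 member was called between sham and naive rats. In the hippocampus at 2 weeks Adamts7 fell in sham rats (-0.33, 0.05, -0.60 and -0.13, against 0.33, 0.49, 0.30 and 0.55 in naive rats; log2 fold change -0.67, adjusted p = 0.0151), 1 of 27 members against 8.88% of probes. In the hippocampus at 3, 6 and 12 months 0 of 20, 0 of 23 and 0 of 30 members were called, against 0%, 3.54% and 3.11% of probes, with 2, 1 and 2 members at an unadjusted p under 0.05 (5.95%, 15.9% and 21.5% of probes). Of cortical members at 2 weeks, 3, 6 and 12 months 0 of 26, 0 of 25, 0 of 26 and 0 of 29 were called, against 0%, 0.431%, 0% and 4.33%, with 0, 1, 1 and 3 members under 0.05 without adjustment (0.0487%, 9.09%, 6.8% and 18.1% of probes).

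After 24 hr, 2 members were called between TBI and naive rats, both in the hippocampus. Mmp9 at 6 months read 0.90, 0.63, 0.54 and 1.15 after TBI and 0.09, -0.77, -0.34 and -1.15 in naive rats, of which 2 arrays were above background (log2 fold change 1.35, adjusted p = 0.00455), 1 of 25 members against 3.82% of probes. Of the sham arrays of that interval, 3 lay below all TBI arrays (0.20, 0.16 and 0.18) and the other, at 1.03, lay within the TBI range. Timp2 at 12 months read 7.27, 7.36, 7.44 and 7.48 after TBI and 7.63, 7.76, 8.02 and 7.90 in naive rats (-0.44, adjusted p = 0.0438), 1 of 27 members against 2.13%. That call was lost in 7 of 8 settings that left out 1 array and in 5 of 10 other settings, among them normexp (-0.23, adjusted p = 0.254). At 2 weeks and 3 months 0 of 30 and 0 of 21 hippocampal members were called, against 12.7% and 0.0062% of probes (8 and 0 at an unadjusted p under 0.05, with 30.1% and 2.78% of probes). Of cortical members at 2 weeks, 3, 6 and 12 months 0 of 27, 0 of 26, 0 of 28 and 0 of 27 were called, against 0.124%, 0.578%, 0.273% and 5.3%, and 2, 5, 5 and 6 members passed 0.05 without adjustment (3.42%, 10.9%, 11.8% and 23.1% of probes). At 12 months in the cortex 2 members were called in limma with the replicate number as a block. They were Mmp3, higher by 0.84 (adjusted p = 0.0411), and Adamts1, at -0.72 (adjusted p = 0.0439). Same-numbered TBI and sham arrays deviated together there, and for TBI and naive arrays this was not examined.

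In naive rats the tissues differed in 10 of 26 members tested, over 12 arrays each at 2 weeks, 6 and 12 months, against 31.6% of all probes. Higher in the hippocampus were 5 members (21.3% of probes) and lower 5 (10.3%). The median difference was 0.08 for the members and 0.17 for all probes. At each of these intervals the naive arrays of the tissues lay on different slides and were scanned on different days. Tissue can therefore not be told apart from slide or scan day. By the methods both tissues were taken from each rat, and the fit treats the arrays as independent; same-numbered arrays of the tissues deviated together in all 4 pairs at 2 weeks (r from 0.13 to 0.30) and 12 months (0.31 to 0.46) but in none at 6 months by more than 0.1. With interval and number as a random block the same 10 members were called.

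Adamts9 had the largest difference towards the hippocampus. Its level ran from 1.48 to 2.41 there (median 1.97) and from -0.78 to 1.5 in the cortex (median 0.99), and was higher in the hippocampus by 1.1 ± 0.19 (adjusted p = 1.69e-05), or 0.93 relative to the shift of all probes. Mmp23 (0.73), Adam19 (0.58), Mmp2 (0.55) and Mmp16 (0.48) were also higher there. Towards the cortex, Mmp9 ran from -0.20 to 1.85 (median 1.16) in the cortex and from -1.15 to 0.74 (median 0.15) in the hippocampus, a difference of -1.07 ± 0.17 (adjusted p = 2.96e-06). Adamts15, another protease of aggrecan, ran from 1.88 to 4.14 in the cortex and from 1.66 to 2.98 in the hippocampus (-1.02, adjusted p = 7.14e-06). Adam4 (-0.65), Timp1 (-0.56) and Mmp17 (-0.55) were lower in the hippocampus too. For each of these members the ranges of the tissues overlapped. The cortical arrays include naive replicate 4 of 2 weeks, with 65.2% of its probes above background. Mmp15 read 4.81 there and 6.46 to 6.63 in the other arrays of its group. Leaving out 1 array at a time gave 9 to 13 calls, and Mmp2 lost its call in 7 of 24 such settings.

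**Figure D5:**
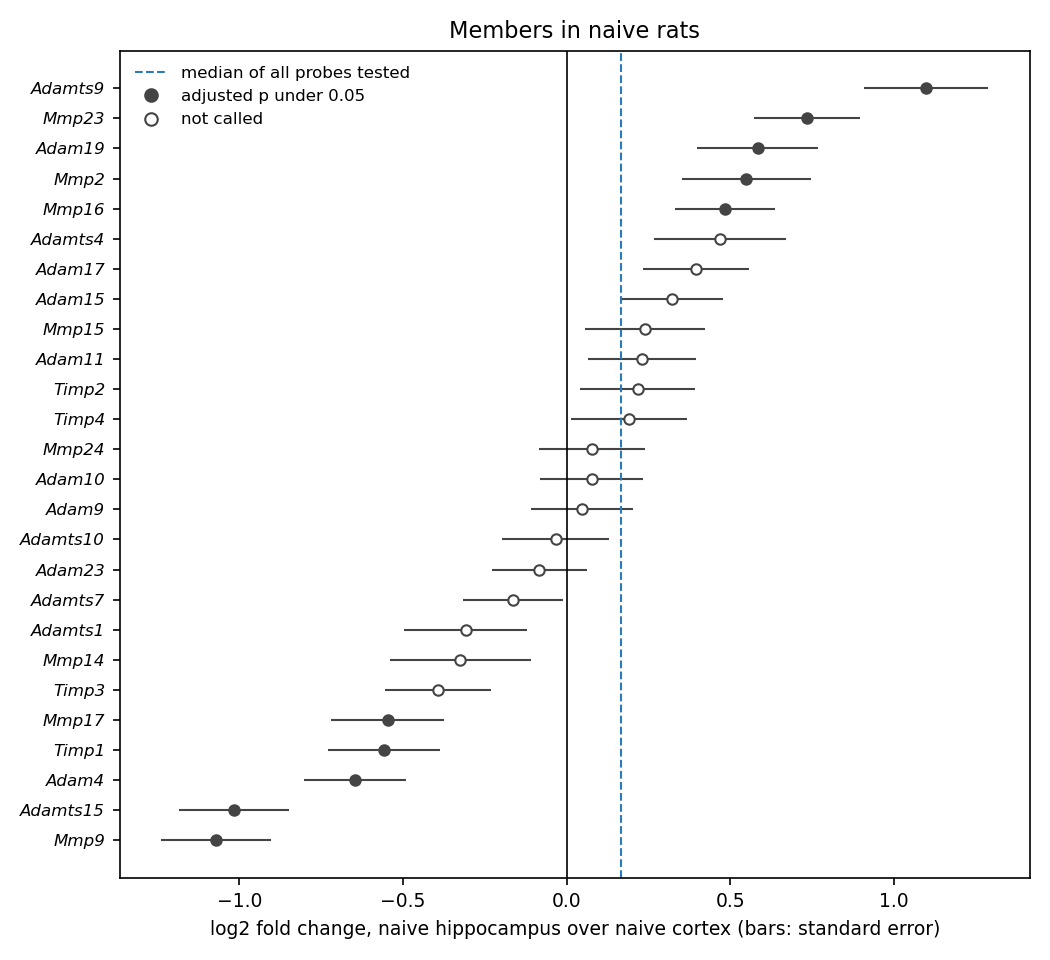
Log2 difference between naive hippocampus and naive cortex with standard error, for the 26 members tested over 12 arrays per tissue; filled points have an adjusted p under 0.05 and the dashed line is the median of all probes tested, 0.17. Adamts9 stands at 1.1 and Mmp9 at -1.07.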

How the data were processed

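For each array the authors deposited intensities per spot from Agilent Feature Extraction 11.5.1.1, already background-subtracted and detrended but not normalized between arrays. The intensity tables deposited beside them, used as an alternative, equal that signal divided by 1 constant per array within 0.05 log2 for 84.1% (lowest array) to 99.7% (median array) of probes above background; the constant lay at the 15.9th to 75.5th percentile (median 74.9), where the methods state the median. The scanner's flags are those deposited; a spot with a non-uniformity flag was left out (median 14 spots per array), no probe was saturated, and the number of arrays limits precision.

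Computations used limma 3.58.1 and the package data.table (version 1.17.8) under R 4.3.3. Spots of a probe were averaged, log2 was taken and the median of the array subtracted. RefSeq identifiers named 46.3% of probes on the larger design and 61.4% on the smaller. One limma fit (lmFit, eBayes) per tissue and interval held all its groups without a block, and p-values were adjusted by Benjamini-Hochberg over all probes tested. Where no array of a group was well above background, the fold is set against the lowest level called above background on each array. That level is the lowest of any probe and not the limit of the member's own probe, so the fold is not a lower bound. Genes named are the Timps, all members called between TBI and sham, those with the largest changes in each comparison, and members with known roles; Neurod6, Nr4a2 and the arrays described singly were chosen after their values were seen. The members and lists were chosen with earlier results of these data known. Alternatives were 75th percentile and quantile scaling, normexp (offset 50, on the median signal), the authors' table, other filters and fits, the mean of all probes, a replicate block and leaving out each array. The procedure was tested on simulated data. Same-numbered TBI and sham arrays deviated together in every pair in 1 of 10 comparisons, the cortex at 12 months, and same-numbered hippocampal and cortical arrays in 5 of 9 groups.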

Additional observations from a re-analysis of the deposited data

Results flagged for a closer look

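Of 263 sets of 4 arrays examined, for 13 members, 20 held 1 array whose gap to the rest, as a share of the range, was above 0.829; chance gives about 1 in 20 such sets. In the cortex at 2 weeks, sham replicate 3 was far below its group for Adamts1 (gap share 0.831), Mmp15 (0.891), Timp1 (0.845), Timp2 (0.938) and Timp4 (0.936), and naive replicate 4 for Mmp15 (0.907). Mmp2 stood apart in the hippocampus in naive replicate 3 (0.926) and sham replicate 3 (0.917) at 12 months and in sham replicate 2 at 6 months (0.843), and in the cortex in TBI replicate 4 at 12 months (0.831). Timp1 stood apart in TBI replicate 4 of the cortex at 12 months (0.938) and in sham replicate 3 of the hippocampus at 3 months (0.886), and in that hippocampal array Adam17 did too (0.861). In hippocampal TBI rats at 3 months, Adamts1 stood apart in replicate 3 (0.850) and Mmp14 in replicate 4 (0.871). The others were Adam17 in hippocampal TBI replicate 1 at 6 months (0.846), Adamts7 in hippocampal TBI replicate 2 at 2 weeks (0.845), Mmp9 in cortical naive replicate 2 at 3 months (0.901) and in hippocampal naive replicate 1 at 2 weeks (0.895), and Timp2 in cortical sham replicate 4 at 12 months (0.847).

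The TBI effect on Mmp19 at 24 hr differed between hippocampus and cortex by 2.29 on the log2 scale, by the interaction contrast in limma (adjusted p = 0.0427). Mmp19 was not well above background in either hippocampal sham array, so this size is not exact; the difference was 0.24 under normexp and was not called in 9 of 13 settings that left out 1 array.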

How the results depend on the processing

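The counts of members called are small, so most settings that moved one moved it by 1 to 3 members; 615 of the recomputed counts stayed within 1.5 times and 107 did not, and of the members' log2 fold changes 1873 kept their side of the threshold, 151 lost it, 55 gained it and none reversed.

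Between TBI and sham, hippocampus at 24 hr, 0 members were called with no filter on dim probes and 4 with a replicate block (Adamts1, Adamts7, Mmp19 and Timp1). In the hippocampus at 2 weeks, 2 were called after quantile normalization, and 0 with no filter, the replicate block, only the compared groups in the fit or all groups of the tissue. In the cortex at 24 hr, normexp gave 7 and no filter 11 (4338 of 25867 and 9656 of 45598 probes called), and at 2 weeks no filter gave 3 and all groups in the fit 13 (4549 of 45598 and 11093 of 23578 probes). Leaving out 1 array at a time gave 3 to 8 in the hippocampus at 24 hr, 0 to 2 at 2 weeks, 0 to 2 in the cortex at 24 hr and 0 to 1 at 6 months.

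Between sham and naive, hippocampus at 2 weeks, the 75th percentile, normexp and the authors' values gave 2 each, and no filter, a filter in all groups and all groups in the fit 0 each (leave-one-out 1 to 3). At 6 months the 75th percentile and normexp gave 1, quantile 3 and the authors' values 2 (leave-one-out 0 to 2). At 12 months normexp gave 2 and no filter 12. At 24 hr in the cortex, scaling by the 75th percentile, quantile and the authors' values gave 3, no filter and all groups 1, and only the compared groups 11; at 12 months normexp gave 1 and no filter 6; at 3 months leave-one-out gave 0 to 1.

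Between TBI and naive, hippocampus at 2 weeks, quantile and normexp gave 1 (leave-one-out 0 to 2). At 6 months quantile gave 2, normexp 4, and no filter or a filter in all groups 0 (leave-one-out 1 to 2). At 12 months quantile, no filter, only the compared groups and all groups gave 0 (leave-one-out 0 to 1). In the cortex all groups gave 6 at 24 hr; at 2 weeks the 75th percentile and the authors' values gave 1, only the compared groups 3 and all groups 2; at 3 months the 75th percentile, quantile and the authors' values gave 2; at 12 months the replicate block gave 2 (Mmp3 and Adamts1). Leave-one-out gave 0 to 1 at 3 and 12 months.

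For the tissue difference at 24 hr, normexp, the authors' values, no filter and a filter in all groups gave 0 (leave-one-out 0 to 2). For the interval difference in the cortex, normexp gave 1, the authors' values 2 and no filter 5 (leave-one-out 0 to 1), and in the hippocampus the 75th percentile and quantile gave 3 and the authors' values 2. Between naive tissues the 75th percentile gave 17 and the authors' values 16. The cause of these moves was not tested.

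Of the members called in the hippocampus at 24 hr, normexp gave smaller values: 0.75 for Mmp19 (adjusted p = 0.0128), 0.70 for Mmp9 (0.0452), -0.36 for Timp4 (0.290), -0.36 for Adamts18 (0.0661) and -0.32 for Mmp15 (0.107). Adamts18 was also lost with the 75th percentile (0.0552) and the authors' values (0.171). In the cortex at 2 weeks the median of all probes between TBI and sham was 0.95, 0.20 with the 75th percentile, 0.46 after quantile normalization and -0.39 with the authors' values.

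The replicate block moved no other count of calls by over 1.5 times. A slide block was not run, since each group lies on 1 slide. Signal over background limits the members above background in no whole group, and the hippocampus at 24 hr has no naive array and 2 sham arrays.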

Other observations

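Mmp23 in cortical sham rats at 3 months was 4.05 in replicate 1 and 1.46, 1.30 and 1.1 in the other 3, with naive arrays at 1.51 to 2.03. Mmp12 was above background in 2 hippocampal TBI arrays at 2 weeks and 1 cortical TBI array at 2 weeks, and in 1 hippocampal naive array at 6 months, where it reached 1.94. Mmp13 was above background in 1 cortical sham array at 24 hr, at 1.00. These values were picked after they were seen.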
